A study of Mus musculus with 6 samples.

Results

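The genes described here are the inflammatory CXC chemokines Cxcl1, Cxcl2, Cxcl3, Cxcl5, Cxcl9, Cxcl10, Cxcl14 and Cxcl16, together with fractalkine (Cx3cl1) and its receptor Cx3cr1. They were chosen by name, and each of the 10 was found in a single row among the 22183 genes of the deposited table. RNA was sequenced from CD31+ cells of the peritoneum of wild-type young adult male C57BL/6J mice that received an intraperitoneal injection every day for 6 weeks. The 3 mice of the saline group received saline, and the 3 mice of the PD fluid group (PD mice) received Dianeal peritoneal dialysis fluid, which contains glucose. Each library comes from a separate mouse, both groups were injected, and neither carried a transgene. Levels are TMM-scaled counts of a gene per 1000000 counts (CPM), and a positive log2 fold change means a higher level in PD mice.

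Chemokines are small secreted proteins that direct leukocytes along a concentration gradient and are held on the vessel wall by sulphated sugars. Cxcl1, Cxcl2, Cxcl3 and Cxcl5 belong to the group that binds Cxcr2 and draws neutrophils, and in the peritoneum they are known from acute peritonitis. Cxcl9 and Cxcl10 are induced by interferons and draw activated T and NK cells through Cxcr3. Cxcl16 and Cx3cl1 are made as membrane proteins with a mucin stalk, so that they can hold a passing cell as well as attract it once they are shed. Cxcl16 binds Cxcr6, and Cx3cl1 binds Cx3cr1 on monocytes and macrophages.

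Total counts ran from 21973426 to 26374292 per mouse, and 14005 genes passed the filter on low counts. The cell type label was checked against its markers. Endothelial transcripts were present. The 12 endothelial markers summed to 1582 to 1694 CPM in saline mice against 2788 to 2865 CPM in PD mice. Of the 12, 11 were called higher, against 31.1% of all tested genes. The labels describe magnetic selection of CD31+ cells, whereas the study's supplement describes flow sorting of CD31+ cells without CD45 from the mesentery. Leukocyte transcripts were present in all libraries, and Ptprc, which encodes CD45, had a mean of 2372 CPM in saline mice against 1472 CPM in PD mice. The 12 markers of macrophages and monocytes summed to 2681 to 2828 CPM in saline mice against 10840 to 11690 CPM in PD mice. All 12 were called higher. The 6 B cell markers summed to 5155 to 5450 CPM in saline mice against 2444 to 2477 CPM in PD mice. In saline mice the B cell sum was thus above the endothelial sum. In PD mice the macrophage sum and that of 8 pancreatic acinar markers (8506 to 12250 CPM) were above it. The libraries therefore hold RNA of several cell types, and sums of different genes do not measure cell numbers. In bulk RNA, a change in the number of cells of a type cannot be told apart from a change in the RNA of each cell. Log2 fold changes are therefore also given after scaling each library to the 12 endothelial markers, which moved the median of all tested genes from 0.02 to -0.76. This scaling uses their summed counts, so that the most abundant markers weigh most. These were Plvap (means of 540 CPM in saline and 1094 CPM in PD mice) and Pecam1 (469 and 513 CPM).

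Promoter windows are shown first, because several members share a short stretch there that the pathways described further on are known to use. The windows are taken from RefSeq (GRCm38.p6), which held an entry of 250 bases before to 50 bases after the transcription start for 8 of the 10 genes, the entries for Cxcl5 and Cxcl16 not being analysed here. Both strands were searched for GGGNNNTTCC, a form of the site that NF-κB proteins bind, and for GAAANNGAAA, a form of the interferon-stimulated response element. Capitals mark every match to either, including overlapping ones, and all windows read along the strand of the gene. The windows of Cxcl1 (chr5:90891144-90891196, plus strand), Cxcl2 (chr5:90903790-90903842, plus strand), Cxcl3 (chr5:90786016-90786072, plus strand), Cxcl10 (chr5:92348972-92349114, minus strand) and Cxcl14 (chr13:56296702-56296735, minus strand) were as follows.
Cxcl1: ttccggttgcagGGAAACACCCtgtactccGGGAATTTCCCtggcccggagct
Cxcl2: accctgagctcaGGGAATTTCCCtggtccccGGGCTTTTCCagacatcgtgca
Cxcl3: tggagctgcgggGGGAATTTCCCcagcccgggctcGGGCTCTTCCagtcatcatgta
Cxcl10: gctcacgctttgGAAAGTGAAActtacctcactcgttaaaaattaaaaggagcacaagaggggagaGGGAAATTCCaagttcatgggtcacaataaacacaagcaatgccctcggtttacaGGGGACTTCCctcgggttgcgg
Cxcl14: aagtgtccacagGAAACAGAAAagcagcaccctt

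The same stretch, GGGAATTTCC, lay 71 to 62 bases before the start of Cxcl1, 97 to 88 bases before that of Cxcl2 and 73 to 64 bases before that of Cxcl3. Cxcl10 held 2 matches of the NF-κB type and, 213 to 204 bases before its start, the interferon type GAAAGTGAAA. At least 1 match of the NF-κB type was found in 4 of the 8 promoters (Cxcl1, Cxcl2, Cxcl3 and Cxcl10) and in 5.56% of all 32851 promoters of the same length. The interferon type was found in 2 of the 8 (Cxcl10 and Cxcl14) and in 3.44% of all promoters. The letters of the TATA box, TATAAA, were found in 3 of the 8 (Cxcl3, Cxcl9 and Cx3cl1), against 13.6% of all. They lay 30 to 25 bases before the start of Cxcl3, 195 to 190 before that of Cxcl9 and 6 to 1 before that of Cx3cl1. These are matches of letters and not measured binding sites.

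Of the 10 genes, 7 reached the count needed for testing in saline mice as well as in PD mice, namely Cxcl1, Cxcl2, Cxcl9, Cxcl10, Cxcl16, Cx3cl1 and Cx3cr1. Each of these 7 rose in PD mice by edgeR's quasi-likelihood test (Benjamini-Hochberg adjusted p below the threshold of 0.05), while 31.1% of all tested genes rose and 27.8% fell. In each of the 7, every PD mouse was above every saline mouse, as in 34% of tested genes. Cxcl3, Cxcl5 and Cxcl14 passed the filter only through their counts in PD mice, so that they had to differ if they were tested at all, and they are left out of these counts and described without a test. The rise was at least 2-fold in 6 of the 7 genes, against 15.4% of all tested genes, and Cxcl9 was the exception. After scaling to the endothelial markers, under which 11% of tested genes were higher and 66.7% lower, 6 of the 7 were still higher and Cxcl9 was not called.

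**Figure D1:**
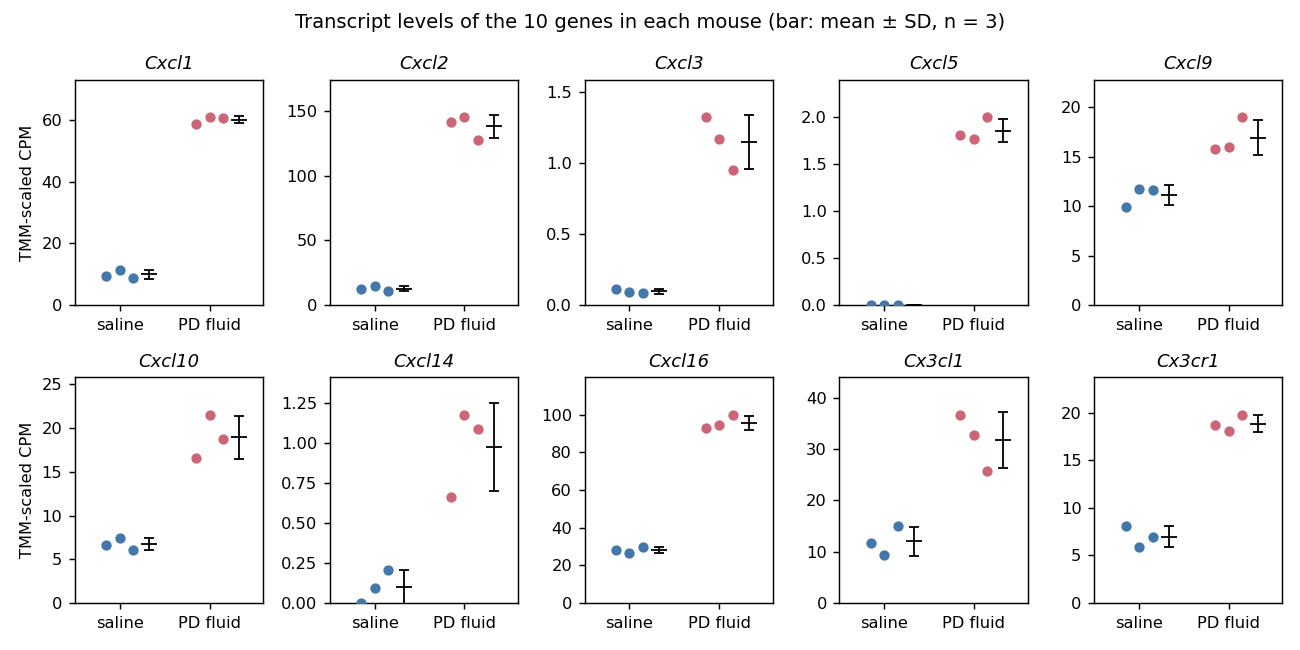
TMM-scaled CPM of the 10 genes in each mouse, with saline mice in blue, PD mice in red, and the mean ± SD of 3 mice beside them. The vertical axes start at 0 and differ between panels. In every panel the 3 PD mice lie above the 3 saline mice, as in 34% of tested genes. For Cxcl3, Cxcl5 and Cxcl14 nothing is read from this, since they passed the filter only through their counts in PD mice. The ratio of the lowest PD mouse to the highest saline mouse is smallest in Cxcl9 (15.8 against 11.7 CPM).

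Among the neutrophil-attracting ligands, Cxcl2 was the most abundant per transcript length in PD mice. Cxcl2 (ENSMUSG00000058427, chromosome 5 of GRCm38, 90903871 to 90905938 in GENCODE M21) was at 12.8, 14.8 and 10.97 CPM in the saline mice and at 141, 145 and 128 CPM in the PD mice. The groups were far apart, the lowest PD mouse being 8.64-fold above the highest saline mouse. Its log2 fold change was 3.43 (SE 0.11, adjusted p = 1.13e-09 in edgeR's quasi-likelihood test), or 10.7-fold, and 2.64 (SE 0.12) relative to the endothelial markers. A larger rise was measured in 1.3% of the tested genes.

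Cxcl1 (ENSMUSG00000029380, chromosome 5, 90891241 to 90893115), the neighbour of Cxcl2 and also known as KC, was at 9.53, 11.5 and 8.90 CPM in the saline mice. In the PD mice it was at 58.8, 60.8 and 60.5 CPM. The PD mice were close to each other, with a coefficient of variation of 1.8%, against 13.7% in the saline mice. The log2 fold change was 2.59 (SE 0.11, adjusted p = 8.17e-09 in edgeR's quasi-likelihood test), or 6.02-fold, and 1.81 (SE 0.12) relative to the endothelial markers.

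The 2 genes did not rise in step. The number of Cxcl2 reads for each Cxcl1 read was 1.35, 1.28 and 1.23 in the saline mice and 2.4, 2.39 and 2.11 in the PD mice. This ratio, which does not depend on how the libraries are scaled, was 1.79-fold higher in PD mice, without overlap between the groups.

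Cxcl3 and Cxcl5, from the same cluster on chromosome 5, were nearly silent in saline mice. Cxcl3 (ENSMUSG00000029379, 90786103 to 90789600) had 3, 2 and 2 counts in the saline mice and 36, 28 and 21 counts in the PD mice. Its scaled ratio was 11.9 (95% exact interval 5.52 to 30.4, covering counting error only), and its log2 fold change was 3.49 (SE 0.49), or 2.73 (SE 0.54) relative to the endothelial markers. The value is uncertain because 126 of its 3587 different 50-base stretches also occur in the transcripts of the far more abundant Cxcl2, and how shared reads were counted is not given in the sources used here. Relative to Cxcl1, Cxcl3 had 0.0123, 0.008 and 0.0093 reads for each Cxcl1 read in the saline mice and 0.0225, 0.0193 and 0.0157 in the PD mice, and the ratio was higher in every PD mouse, although it rests on 2 to 3 counts in each saline mouse.

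Cxcl5 (ENSMUSG00000029371, 90759360 to 90761624), which is also called LIX, had 0 counts in each of the 3 saline mice and 49, 42 and 44 counts in the PD mice. Taking 3 counts per library as the most that a count of 0 allows, which is 0.127 CPM, the PD mice were at least 14.6-fold higher. Its level in PD mice was still low, at 1.85 ± 0.12 CPM (SD, n = 3).

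The receptors of these ligands were measured at low levels. Cxcr2, the neutrophil receptor for all of them, was at 5.66, 3.46 and 3.64 CPM in the saline mice and 3.75, 4.61 and 4.89 CPM in the PD mice, with overlapping groups and a log2 fold change of 0.05 (SE 0.23, adjusted p = 0.874 in edgeR's quasi-likelihood test). Relative to the endothelial markers it was called lower, at -0.73 (SE 0.23, adjusted p = 0.00921 in the same edgeR test). This is near the median of all tested genes under that scaling, -0.76, where 66.7% were called lower. Cxcr1 had too few counts to be tested, with a mean of 0.106 CPM in saline mice against 0.208 CPM in PD mice. The other tested neutrophil markers moved differently from Cxcr2. S100a8, an abundant calcium-binding protein of neutrophils, was at 1.56, 1.61 and 1.08 CPM in the saline mice and 83.9, 79.4 and 85.4 CPM in the PD mice. Of the 10 neutrophil markers, Cxcr2 included, 9 were tested and 8 were called higher, against 31.1% of all tested genes. Mmp8, Camp and Ltf passed the filter only through their counts in PD mice, so that they had to differ if tested. The sum of the 10 markers was 18.9 to 21.9 CPM in saline mice against 282 to 298 CPM in PD mice. Ly6g, Camp and Ltf were each at 0 in at least 1 library, and Ly6g, which marks mature mouse neutrophils, was not tested, at 0.0414 CPM on average in saline mice against 0.372 CPM in PD mice. The part of neutrophils in the rise of the 4 ligands was not tested.

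Cxcl10 and Cxcl9, the ligands of Cxcr3, rose by different amounts. Cxcl10 (ENSMUSG00000034855, chromosome 5, 92346638 to 92348889) was at 6.64, 7.47 and 6.04 CPM in the saline mice and 16.6, 21.5 and 18.8 CPM in the PD mice. The log2 fold change was 1.5 (SE 0.14, adjusted p = 7.16e-06 in edgeR's quasi-likelihood test), or 2.82-fold, and 0.72 (SE 0.16) relative to the endothelial markers. Of its exon bases, 133 of 2252 overlap Art3 on the other strand, which was at 10.6 to 12.9 CPM in saline mice against 13.1 to 13.7 CPM in PD mice, and reads of the overlap could belong to either gene.

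Cxcl9 (ENSMUSG00000029417, chromosome 5, 92321347 to 92328079) was at 9.95, 11.7 and 11.7 CPM in the saline mice and 15.8, 16.0 and 19.0 CPM in the PD mice. This was the smallest change of the 10, with a log2 fold change of 0.61 (SE 0.13, adjusted p = 0.00192 in edgeR's quasi-likelihood test), or 1.52-fold. A larger rise was measured in 25.6% of tested genes and a larger change in either direction in 33.7%. Relative to the endothelial markers its sign turned, to -0.17 (SE 0.14, adjusted p = 0.262 in the same edgeR test). Cxcl9 had 1.5, 1.57 and 1.93 reads for each Cxcl10 read in the saline mice but 0.951, 0.745 and 1.01 in the PD mice, so that the balance between them shifted towards Cxcl10 in every PD mouse.

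Cxcr3, carried by activated T and NK cells, was at 64.6, 69.7 and 66.5 CPM in the saline mice and 80.6, 80.4 and 85.8 CPM in the PD mice. Its log2 fold change was 0.30 (SE 0.07, adjusted p = 0.0036 in edgeR's quasi-likelihood test). Relative to the endothelial markers it was lower, at -0.48 (SE 0.09), where the median of all tested genes was -0.76. The 9 T and NK cell markers summed to 1654 to 1751 CPM in saline mice against 1423 to 1596 CPM in PD mice. Of the 9, 2 were called higher and 3 lower, against 31.1% and 27.8% of all tested genes. Nothing particular to the list is read from these counts.

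Cxcl16 had the highest level per transcript length of the 10 genes in saline mice and rose with little spread. Cxcl16 (ENSMUSG00000018920, chromosome 11, 70453983 to 70459984) was at 28.1, 26.3 and 29.8 CPM in the saline mice and 93.2, 94.4 and 99.9 CPM in the PD mice. The log2 fold change was 1.77 (SE 0.08, adjusted p = 1.5e-08 in edgeR's quasi-likelihood test), or 3.41-fold, and 0.99 (SE 0.09) relative to the endothelial markers. Of its 3021 exon bases, 552 overlap Zmynd15 on the other strand, which was at 2.26 to 2.57 CPM in saline mice against 6.87 to 8.64 CPM in PD mice. The library kit named in the labels does not mark the strand, so that reads of the overlap could belong to either gene.

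Cxcl16 was also set against Csf1r, the macrophage receptor for colony-stimulating factor. It had 0.138, 0.147 and 0.151 reads for each Csf1r read in the saline mice and 0.132, 0.146 and 0.16 in the PD mice, with overlapping groups and means of 0.146 in both. For each read of Adgre1, which encodes F4/80, there were 0.334, 0.293 and 0.36 Cxcl16 reads in the saline mice and 0.266, 0.278 and 0.272 in the PD mice. Over the 12 macrophage and monocyte markers the ratio was lower in every PD mouse for 8, higher for 2 (Cd68 and Ccr2) and overlapping for 2, with means in PD mice at 0.516 (Itgam) to 1.4 (Ccr2) of those in saline mice. The part of macrophages in the rise of Cxcl16 was not tested. Its receptor Cxcr6, found on T cells, NK cells and NKT cells, was at 159, 162 and 162 CPM in the saline mice and 281, 307 and 333 CPM in the PD mice, a log2 fold change of 0.93 (SE 0.07, adjusted p = 1.22e-06 in edgeR's quasi-likelihood test). Relative to the endothelial markers Cxcr6 was not called, at 0.15 (SE 0.09, adjusted p = 0.129 in the same edgeR test).

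Fractalkine varied most between mice among the 7 well-counted genes. Cx3cl1 (ENSMUSG00000031778, chromosome 8, 94772009 to 94782427) was at 11.8, 9.36 and 14.9 CPM in the saline mice and 36.7, 32.9 and 25.8 CPM in the PD mice. Its coefficient of variation was 23.3% in saline mice and 17.3% in PD mice, and the groups did not overlap. The log2 fold change was 1.40 (SE 0.17, adjusted p = 5.41e-05 in edgeR's quasi-likelihood test), or 2.64-fold. Relative to the endothelial markers it was 0.63 (SE 0.16, adjusted p = 0.00203 in the same edgeR test).

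Since endothelium is a known source of fractalkine, its reads were also set against single endothelial genes. For each read of Pecam1, which encodes CD31, there were 0.0257, 0.0191 and 0.0327 Cx3cl1 reads in the saline mice and 0.0707, 0.0652 and 0.0499 in the PD mice, a 2.4-fold higher mean. For each read of Cdh5, which encodes VE-cadherin, there were 0.639, 0.567 and 0.684 in the saline mice and 1.08, 1.02 and 0.763 in the PD mice, a 1.51-fold higher mean. Over all 12 endothelial markers, the ratio was higher in every PD mouse for 4 markers (Cdh5, Egfl7, Tek and Pecam1) and overlapped between the groups for the other 8. The mean in PD mice was between 0.824 (Tie1) and 2.4 (Pecam1) of that in saline mice, with a median of 1.35. Against Tie1, an endothelial receptor, there were 0.259, 0.343 and 0.32 Cx3cl1 reads for each read in the saline mice and 0.262, 0.264 and 0.234 in the PD mice. A rise of Cx3cl1 beyond that of endothelial genes therefore depended on the gene it was set against. All 12 markers were compared after the values for Pecam1 and Cdh5 were known.

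The fractalkine receptor, a gene of monocytes and macrophages, was also higher. Cx3cr1 (ENSMUSG00000052336, chromosome 9, 119901616 to 120069879) was at 8.04, 5.85 and 6.95 CPM in the saline mice and 18.7, 18.0 and 19.7 CPM in the PD mice. The log2 fold change was 1.43 (SE 0.14, adjusted p = 7.93e-06 in edgeR's quasi-likelihood test), or 2.7-fold, and 0.66 (SE 0.14) relative to the endothelial markers. The macrophage genes Adgre1 and Csf1r had log2 fold changes of 2.04 and 1.77. For each Adgre1 read there were 0.0957, 0.0653 and 0.084 Cx3cr1 reads in the saline mice and 0.0535, 0.0531 and 0.0537 in the PD mice. For each Csf1r read there were 0.0396, 0.0328 and 0.0352 in the saline mice and 0.0266, 0.028 and 0.0315 in the PD mice. Both ratios were thus lower in every PD mouse, at 0.654 and 0.8 of the saline mean, although Cx3cr1 itself was higher. Over the 12 macrophage and monocyte markers, the ratio was lower in every PD mouse for 9 and overlapped for 3 (Mertk, Cd68 and Ccr2).

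**Figure D2:**
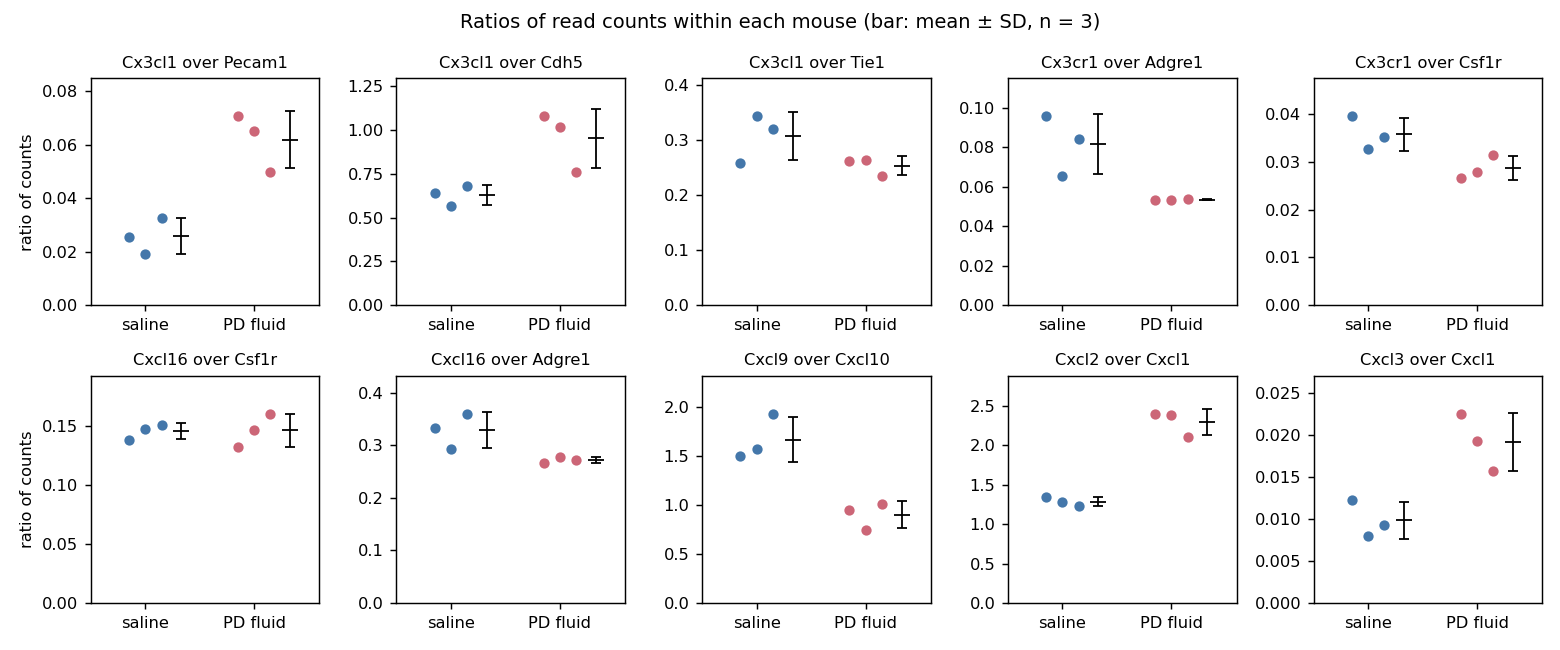
Ratios of read counts within each library, with saline mice in blue, PD mice in red, and the mean ± SD of 3 mice beside them. All axes start at 0. Cx3cl1 is higher in every PD mouse over Pecam1 and Cdh5 but overlaps between the groups over Tie1, and Cxcl16 overlaps over Csf1r but is lower in every PD mouse over Adgre1. Cx3cr1 over Adgre1 or Csf1r and Cxcl9 over Cxcl10 are lower in every PD mouse, and Cxcl2 over Cxcl1 is higher. Cxcl3 over Cxcl1 is also higher, but rests on 3, 2 and 2 Cxcl3 counts in the saline mice.

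Cxcl14, which attracts monocytes and dendritic cells and is known as a constitutive product of epithelium, was close to the limit of detection. Cxcl14 (ENSMUSG00000021508, chromosome 13, 56288643 to 56296551) had 0, 2 and 5 counts in the saline mice and 18, 28 and 24 counts in the PD mice. Its scaled ratio was 9.77 (95% exact interval 4.5 to 25.2), which covers counting error and not the spread between the saline mice, and its log2 fold change was 3.23 (SE 0.68), or 2.48 (SE 0.7) relative to the endothelial markers. The size of the change depended on single saline mice, being 2.64 without the first and 4.35 without the third.

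**Figure D3:**
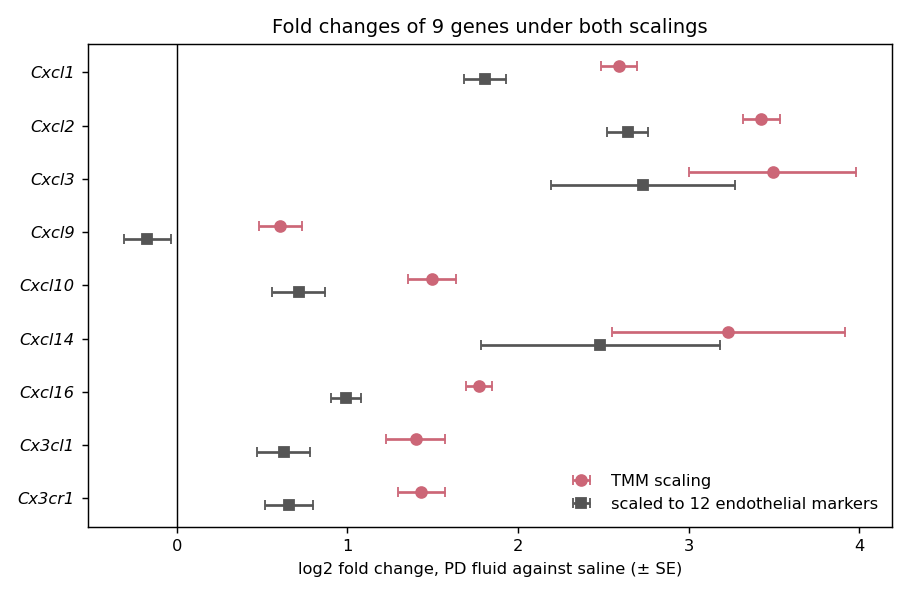
Log2 fold changes of PD mice against saline mice with their standard errors, under TMM scaling (red circles) and scaling to 12 endothelial markers (grey squares). Cxcl5 is left out because its saline counts are all 0. Scaling to the endothelial markers lowers every value and takes Cxcl9 from 0.61 to -0.17, on the other side of 0.

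The order of the genes was compared per transcript length, from the FPKM values that the authors deposited. In saline mice Cxcl16 was highest, at 14.1 ± 0.65 FPKM (SD, n = 3), followed by Cxcl2 at 10.5 ± 1.39 and Cxcl1 at 10.4 ± 1.34 FPKM, whose ranges overlapped. Cxcl10 followed at 6.06 ± 0.58 FPKM, and then Cxcl9 at 3.83 ± 0.34 and Cx3cl1 at 3.73 ± 1.05 FPKM, which also overlapped. Cx3cr1 was at 2.15 ± 0.38 FPKM. Cxcl3, Cxcl14 and Cxcl5 were lowest, at means of 0.096, 0.0547 and 0 FPKM, and neighbours among these 3 overlapped.

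In PD mice Cxcl2 took the first place, at 117 ± 9.66 FPKM (SD, n = 3), above Cxcl1 at 63.2 ± 1.05 and Cxcl16 at 48.6 ± 1.42 FPKM, with no overlap between these neighbours. Cxcl10 at 17.2 ± 2.07 and Cx3cl1 at 10.02 ± 2.28 FPKM came next, each apart from its neighbours. Cx3cr1 at 5.88 ± 0.23 and Cxcl9 at 5.87 ± 0.48 FPKM overlapped, as did Cxcl5 at 1.18 ± 0.06 and Cxcl3 at 1.14 ± 0.22 FPKM. Cxcl14 was lowest, at 0.533 ± 0.14 FPKM. Fractalkine thus moved above Cxcl9, with which it had overlapped in saline mice.

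The sum of the 9 ligands was 48.1, 50.9 and 47.5 FPKM in the saline mice and 271, 272 and 251 FPKM in the PD mice. Cxcl1, Cxcl2, Cxcl3 and Cxcl5 together held 42.6%, 47.2% and 39.3% of that sum in the saline mice and 69.7%, 69.3% and 67.6% in the PD mice. The share of Cxcl9 and Cxcl10 was 19.7%, 21.0% and 20.1% in the saline mice and 7.8%, 9.21% and 9.16% in the PD mice. The share of the transmembrane ligands Cxcl16 and Cx3cl1 was 37.7%, 31.7% and 40.4% in the saline mice and 22.3%, 21.2% and 23.0% in the PD mice. Within the ligand RNA, the ligands of Cxcr2 therefore gained share in every PD mouse and both other groups lost share, although their own levels were higher.

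**Figure D4:**
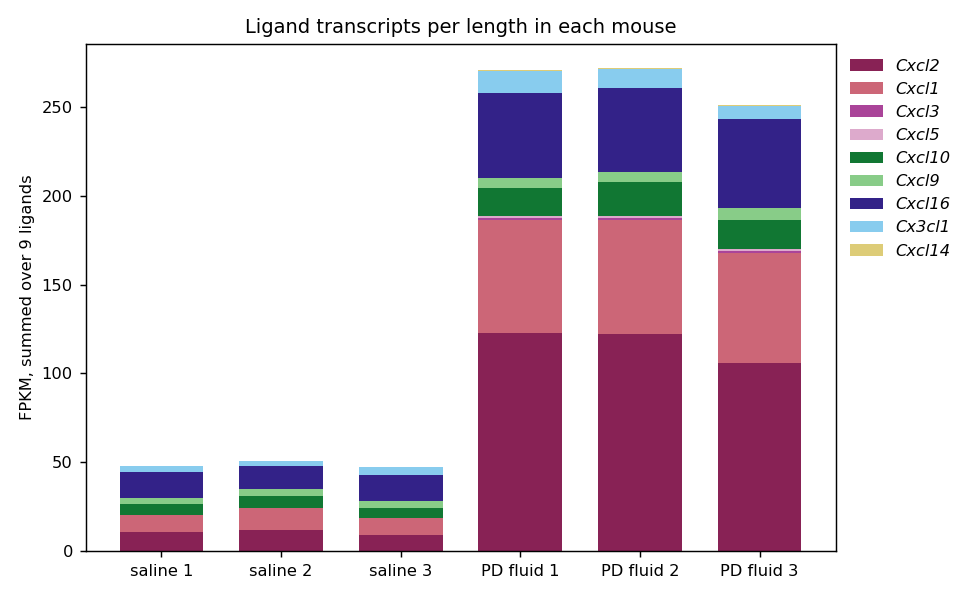
FPKM of the 9 ligands stacked for each mouse, with the vertical axis starting at 0. The saline mice reach 47.5 to 50.9 FPKM and the PD mice 251 to 272 FPKM, and Cxcl2 and Cxcl1 make up the largest part of the PD bars.

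For each member, the pair of other genes with the most similar profile over the 6 mice was found among 12904 tested genes with a mean of at least 1 CPM, as the root mean square difference of log2(CPM + 1) after subtracting each gene's saline mean. Cxcl1 was most like Tnf (0.0436), the cytokine tumour necrosis factor, and Serping1 (0.0682), the C1 inhibitor. Cxcl2 was most like Trem2 (0.109) and Gpnmb (0.113), both of which are macrophage surface proteins. Cxcl16 was most like Dkk3 (0.039) and the adhesion receptor Selp (0.048). For Cx3cl1 these were Rxra (0.0481) and Mmp17 (0.0514), for Cx3cr1 Cyb561 (0.043) and Hk3 (0.061), for Cxcl10 Phyhd1 (0.0584) and Cd300lb (0.0681), and for Cxcl9 Bean1 (0.0406) and Crip2 (0.0419). The added 1 CPM shrinks the changes of low genes, so that near genes can differ in log2 fold change. Beside Cxcl9 at 0.61, Bean1 was at 1.12 and Crip2 at 0.58. The profiles of Cxcl3, Cxcl5 and Cxcl14 are themselves flattened by the added 1 CPM. Their nearest genes were Ticam2 (0.0487) and Ptprb (0.0522), Ltb4r1 (0.0464) and Adam9 (0.0517), and Pakap (0.0549) and Nxpe4 (0.0576), respectively.

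The related lists that follow are read against all tested genes, of which 31.1% were called higher and 27.8% lower with a median log2 fold change of 0.02, or 11% and 66.7% with a median of -0.76 relative to the endothelial markers. Other ligands of the CXC and XC families were compared from a list of 8 genes, of which 5 were tested. In the list 3 were called higher, with a median log2 fold change of 1.31, and relative to the endothelial markers 3 were higher and 1 lower. Cxcl13, which draws B cells, was at 14.8, 16.8 and 15.6 CPM in the saline mice and 288, 318 and 338 CPM in the PD mice, so that its log2 fold change of 4.32 (SE 0.09) was larger than that of Cxcl2. Pf4, a platelet and macrophage chemokine, had a log2 fold change of 1.70 and Cxcl12, which retains Cxcr4-bearing cells, of 1.31. Ppbp at 0.14 and Xcl1 at 0.36 were not called.

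Receptors and scavengers, several of which bind ligands other than the members, formed a list of 11 genes, of which 10 were tested. In PD mice 7 were called higher and 1 lower, with a median of 0.76, but relative to the endothelial markers 3 were higher and 4 lower, with a median of -0.02. The largest change was in Ccrl2, a receptor that presents chemerin without signalling, which went from 29.2, 31.4 and 31.7 CPM to 123, 125 and 123 CPM (log2 fold change 2.0, SE 0.07). The atypical receptors of the vessel wall Ackr3, which scavenges Cxcl12, and Ackr1, which carries chemokines across venules, had log2 fold changes of 1.30 and 1.12. Both remained positive relative to the endothelial markers, at 0.51 and 0.34. Cxcr5, the receptor of Cxcl13 on B cells, was the gene that fell, by 0.73 on the log2 scale, beside the 6 B cell markers, all of which were lower (a sum of 5155 to 5450 CPM in saline mice against 2444 to 2477 CPM in PD mice).

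The shedding of Cxcl16 and Cx3cl1 depends on the proteases Adam10 and Adam17, on the iRhom proteins that bring Adam17 to the surface, and on the inhibitor Timp3. Of these 5 genes, 2 were called higher, with a median of 0.40, against 1 higher and 3 lower relative to the endothelial markers. Timp3 was at 330, 332 and 329 CPM in the saline mice and 782, 761 and 745 CPM in the PD mice (log2 fold change 1.21, SE 0.06), and Rhbdf1 had a log2 fold change of 0.54, or -0.24 relative to the endothelial markers. Adam10 had one of -0.09 (adjusted p = 0.288 in edgeR's quasi-likelihood test) and Adam17 one of 0.15 (adjusted p = 0.0522 in the same edgeR test), so that neither protease was called under TMM scaling.

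The pathways known to induce the members were described from 2 lists. Of 19 genes of NF-κB and acute cytokine signalling, 14 were called higher and 1 lower, with a median log2 fold change of 0.96, and relative to the endothelial markers 9 were higher and 6 lower, with a median of 0.19. The cytokines changed most, with Il6 at 3.01, Il1a at 2.94, Tnf at 2.66 and Il1b at 2.41, and each was still higher relative to the endothelial markers, at 1.63 for Il1b to 2.23 for Il6. Tnf was at 6.79, 8.57 and 6.83 CPM in the saline mice and 47.4, 46.6 and 46.1 CPM in the PD mice, without overlap between the groups. Rel, the subunit c-Rel of lymphocytes, was the gene that fell, by 0.67 on the log2 scale.

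Of 19 genes of the interferon-γ pathway, 8 were called higher and 7 lower, with a median of 0.11, but relative to the endothelial markers 1 was higher and 15 lower, with a median of -0.67. Among all tested genes 31.1% were higher and 27.8% lower, or 11% and 66.7% relative to the endothelial markers, and nothing particular to the list is read from its counts. Ido1, an enzyme of tryptophan breakdown, had a log2 fold change of 1.22, the feedback inhibitor Socs1 of 1.08 and the receptor chain Ifngr1 of 0.71, which was -0.07 relative to the endothelial markers. Ifng itself was low and overlapped between the groups, at 3.63, 2.67 and 2.77 CPM in the saline mice and 2.68, 3.81 and 4.17 CPM in the PD mice.

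Genes of leukocyte attachment to endothelium were higher in 8 of 10 cases, with a median of 0.84, against 5 higher and 3 lower relative to the endothelial markers. The selectins led, with Sele at a log2 fold change of 3.04 and Selp at 1.71, followed by Vcam1 at 1.13 and Icam1 at 1.07, and all of these stayed positive relative to the endothelial markers. Of 14 CC chemokines 11 were called higher, with a median of 2.16, against 8 higher and 4 lower relative to the endothelial markers. Ccl8 had the largest change, at 5.06, followed by Ccl3 at 2.97, Ccl9 at 2.74 and Ccl4 at 2.72, all of which are monocyte attractants or macrophage products. A further list held 13 genes that make, carry or cut the sulphated sugars on which chemokines are displayed. Of these, 9 were called higher and 1 lower, with a median of 0.66. Relative to the endothelial markers 2 were higher and 6 lower. Sdc3 at 2.56 and Sdc2 at 1.70, both syndecan core proteins, changed most, followed by the sulphotransferases Hs6st1 at 1.04 and Hs2st1 at 0.76, the latter being -0.01 relative to the endothelial markers. Sdc4, another syndecan, fell by 0.33 on the log2 scale.

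**Figure D5:**
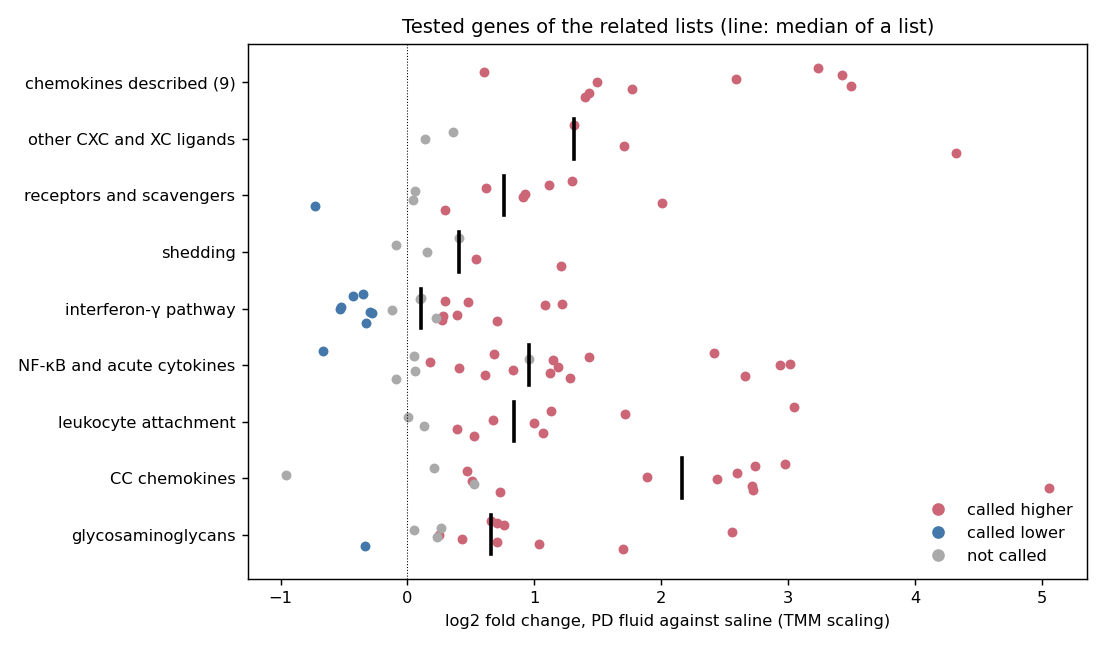
Log2 fold changes of PD mice against saline mice (TMM scaling) for 9 of the genes described and for the tested genes of 8 related lists, coloured by edgeR call, with a line at the median of each list. Ccl8 of the CC chemokines at 5.06 and Cxcl13 of the other CXC and XC ligands at 4.32 reach the highest values. The interferon-γ list lies on both sides of 0. Cxcl5 is left out, and relative to the endothelial markers the values lie lower, with medians below 0 for the receptor (-0.02), shedding (-0.37), interferon-γ (-0.67) and glycosaminoglycan (-0.12) lists.

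Transcripts of other cell types differed between the same groups. The 10 mesothelial markers, all called higher, summed to 34.0 to 39.6 CPM in saline mice against 236 to 269 CPM in PD mice, and the 10 fibroblast markers, also all called higher, to 103 to 110 CPM and 889 to 928 CPM. The 8 markers of pancreatic acinar cells, again all called higher, summed to 4.33 to 9.96 CPM in saline mice against 8506 to 12250 CPM in PD mice, with Ctrb1 at 0 in at least 1 library. Most acinar markers, Ctrb1 included, and the mesothelial markers Wt1 and Bnc1 passed the filter only through their counts in PD mice. Since they had to differ if they were tested at all, nothing is read from their calls. Of the 7 dendritic cell markers 4 were higher and 1 lower, and their sum was 615 to 656 CPM in saline mice against 571 to 588 CPM in PD mice. Of the tested genes of the other lists, 6 of 6 mast cell, 7 of 8 pericyte and smooth muscle, 2 of 5 adipocyte and 1 of 4 platelet markers were called higher. Cspg4 of the pericyte and smooth muscle list passed the filter only through its counts in PD mice. Among all tested genes 31.1% were called higher and 27.8% lower. Mesothelial cells, fibroblasts and macrophages are all known to make chemokines of this family, and the part of each cell type in the values given here was not tested.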

How the data were processed

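Transcript levels came from RNA sequencing of CD31+ cell isolates from the peritoneum of 3 saline and 3 PD mice. Libraries were grouped by the treatment in the sample labels, with 0 columns of sample values unmatched. The authors deposited read counts per gene without normalization and FPKM values, which scale counts to library size and transcript length. Their group means, log2 ratios, p-values and FDR were not used. The submitters' processing notes name fastp 0.18.0, Bowtie2 2.2.8, HISAT2, StringTie and RSEM, and the genome build is not given in the sources used here. Gene positions are from GENCODE M21 (GRCm38), matched by Ensembl identifier, and promoters from RefSeq (GRCm38.p6).

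For the counts, edgeR 4.0.16 in R 4.3.3 was used (filterByExpr, TMM, quasi-likelihood test of PD mice against saline mice without covariates, Benjamini-Hochberg adjustment over all 14005 tested genes, threshold 0.05), beside limma 3.58.1, DESeq2 1.42.0 and Python 3.11.15. Standard errors were derived from the F statistic. The steps were checked on simulated data. The study's methods name limma, which was run as an alternative, since edgeR fits raw counts. FPKM served for comparing levels between genes and, as log2(FPKM + 0.1), for an alternative test. With 21973426 to 26374292 counts per mouse, a gene at 0 is limited to 3 counts per library, and p-values rest on 3 mice against 3. The alternatives were other size factors, total-count scaling, scaling to 12 endothelial markers, no filter, DESeq2, limma-voom, a change of at least 2-fold, the replicate number as a block and leaving out each mouse. Ratios of members to every endothelial or macrophage marker were added after seeing the data.

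The members, the 8 related lists and the 13 marker lists were chosen with earlier results of these data known. From each list at most 4 called genes with the largest change were named, with the receptors of the members, and 1 gene that met this rule and 1 promoter motif are not reported here. Cxcr5, Ppbp, Xcl1, Adam10, Adam17, Rel, Ifng, Sdc4, Ptprc and the overlapping genes Art3 and Zmynd15 were named after their values were seen.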

Additional observations from a re-analysis of the deposited data

How the results depend on the processing

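The 7 members with enough counts in both groups were each called higher under other size factors, total-count scaling, no filter on low counts, limma-voom and DESeq2, where 26.2% to 31.5% of all tested genes were higher, and with any single mouse left out, where 27.2% to 30.4% were. When counts were scaled to endothelial markers, 6 of the 7 were higher, against 11% of all genes. Cxcl3, Cxcl5 and Cxcl14 had to differ to be tested, and their calls say nothing about stability. The log2 fold change that changed sign was that of Cxcl9 with scaling to the endothelial markers, at -0.17 (adjusted p = 0.262 in edgeR's quasi-likelihood test), against 0.52 to 0.65 with each mouse left out. That scaling lowers all genes by its construction, since the 12 markers were higher in PD mice. With it the genes of the related lists went from 62 higher and 10 lower to 32 higher and 42 lower. With each mouse left out they were 59 to 64 higher and 9 to 11 lower.

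On the scale log2(FPKM + 0.1), the changes of the low genes shrank to 2.65 for Cxcl3, 3.68 for Cxcl5 and 2.08 for Cxcl14, as the added constant is close to their saline level. Cxcl14 ranged from 2.64 without the first saline mouse to 4.35 without the third. With the replicate number as a replicate block, the 7 members were called higher, against 30.3% of all genes, as were 61 genes of the related lists, and 10 were lower. The deviations of same-numbered libraries from their group means correlated at 0.188, 0.0671 and -0.274 across genes. These values, of mixed sign and from 3 mice per group, cannot settle whether the numbers pair the mice. Depth limits Cxcl3, Cxcl5 and Cxcl14, which had 7, 0 and 7 counts over the 3 saline mice.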
